A study of Danio rerio with 4 samples.

Results

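Skin wounds of adult zebrafish at 2 days post wounding (dpw) were compared with unwounded skin by single-cell RNA sequencing. All cells of the 2 libraries with 500 to 30000 unique molecular identifiers (UMIs), 200 to 4500 detected genes and below 25% mitochondrial UMIs were taken, which are the limits of the study. This kept 13556 of the 29185 cells that pass the same limits in all 4 libraries of the series, 5802 from unwounded skin and 7754 from the wound. The study followed healing of laser-made full-thickness skin wounds with 4 libraries, of which the remaining ones are wounds at 4 and 6 dpw. Each library held the pooled cells of 3 adult wild-type fish, for which the methods name the strains Tüpfel long fin and Ekkwill, and the tissue was dissociated with Liberase. The untreated group is skin that was scraped off, whereas the wounded group is tissue taken with a biopsy punch of 4 mm around a wound of smaller diameter. Intact skin at the wound edge is therefore part of the wound library, and the way of sampling cannot be told apart from wounding.

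Zebrafish skin is a living, mucus-covered epidermis of several keratinocyte layers with mucous cells, ionocytes and resident leukocytes, lying on a dermis of fibroblasts, scale-forming cells, vessels, nerves and pigment cells. After wounding, keratinocytes cover the defect within hours without a fibrin clot, neutrophils and macrophages enter, and granulation tissue of fibroblasts, vessels and macrophages then forms below the new epidermis. Macrophages are known to clear debris and lipids and to send signals to fibroblasts, which deposit the provisional matrix.

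The authors deposited the number of UMIs per gene and cell. The kept cells carried 43307637 UMIs in unwounded skin and 56645346 at 2 dpw. The median cell had 4120 and 4042.5 UMIs, and 1159 and 1178 genes were detected in it. The upper limits removed 241 and 645 cells for their UMIs, and 10 kept cell barcodes were shared by both libraries. Expression is given as CPM, counts of a gene scaled to the UMI total of the library or of a cell class. Brackets hold exact 95% intervals, which cover counting error only. Those of CPM ratios treat every UMI as an independent draw and so leave out the spread between cells. With 1 library per condition there is also no spread between fish, and no test is possible. A gene was called higher or lower at a CPM ratio of at least 2 or at most 0.5 and at least 100 UMIs in either library, with 0 to 2 UMIs set to a floor of 3. Cells were clustered together with those at 4 and 6 dpw, and clusters were named from marker genes, with "-like" in the names because they rest on transcripts alone. Genes of the lists described below took no part in the clustering unless they were markers. The tissue label held: the 15 keratinocyte markers summed to 42099.9 CPM in unwounded skin and 19887 CPM at 2 dpw, against 6.03 and 20.5 CPM for 16 muscle markers, of which 3 and 2 were at 0.

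The wound held more myeloid and vascular cells and a smaller share of epidermal cells than unwounded skin. Macrophage-like cells made up 3.88% (3.4 to 4.41%) of the cells in unwounded skin and 17.4% (16.6 to 18.3%) at 2 dpw, a ratio of 4.49 (3.9 to 5.2). Neutrophil-like cells, the phagocytes that arrive first at a wound, made up 0.965% (0.73 to 1.25%) of the cells in unwounded skin and 6.0% (5.48 to 6.55%) at 2 dpw. These are 56 and 465 cells, but clustering without integration gave this name to 8 and 452. The small share in unwounded skin thus depends on the clustering, which its interval does not cover. Eosinophil-like cells made up 0.276% (0.158 to 0.447%) of the cells in unwounded skin and 3.11% (2.73 to 3.52%) at 2 dpw. Endothelial-like cells rose from 44 to 305 cells, mural-like cells, which wrap vessels, from 12 to 72, and glial-like cells from 31 to 127, with share ratios of 5.19 (3.77 to 7.29), 4.49 (2.42 to 9.09) and 3.07 (2.06 to 4.7). Keratinocyte-like cells made up 33.2% (32 to 34.5%) of the cells in unwounded skin and 16.1% (15.3 to 16.9%) at 2 dpw, a ratio of 0.484 (0.451 to 0.521), and mucous cell-like cells, which secrete the mucus coat, fell to a ratio of 0.267 (0.21 to 0.338). Scale-forming cell-like cells, which build the bony scales, numbered 151 and 46, a ratio of 0.228 (0.16 to 0.319). Red blood cell-like cells had a share ratio of 1.89 (1.59 to 2.26). T cell-like cells made up 22.8% (21.7 to 23.9%) of the cells in unwounded skin and 12.3% (11.55 to 13%) at 2 dpw and fibroblast-like cells 9.98% (9.22 to 10.8%) of the cells in unwounded skin and 6.81% (6.26 to 7.39%) at 2 dpw. For dividing cell-like cells the ratio of 1.13 (0.867 to 1.48) and for pigment cell-like cells that of 0.736 (0.505 to 1.07) had intervals including 1. Shares add up to 100%, so a larger share of one class lowers the others, and fewer cells of a type and less RNA per cell cannot be told apart in a sum over the tissue. No cluster was named for ionocytes, B cells or muscle cells, and unnamed clusters held 14.1% (13.2 to 15%) of the cells in unwounded skin and 21.3% (20.4 to 22.2%) at 2 dpw. One of these, cluster 2, was led by the keratinocyte genes jac4 and krt94 among others. Counted with the keratinocyte-like cells after the data had been seen, it gave 37.4% and 23.21%. The largest unnamed cluster at 2 dpw, cluster 3, numbered 137 and 645 cells, with fabp11a among its leading genes. Cluster 19, led by ptgdsb.2 and ptgdsb.1 among others, numbered 188 and 144 cells. Neither was counted with a class.

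**Figure D1:**
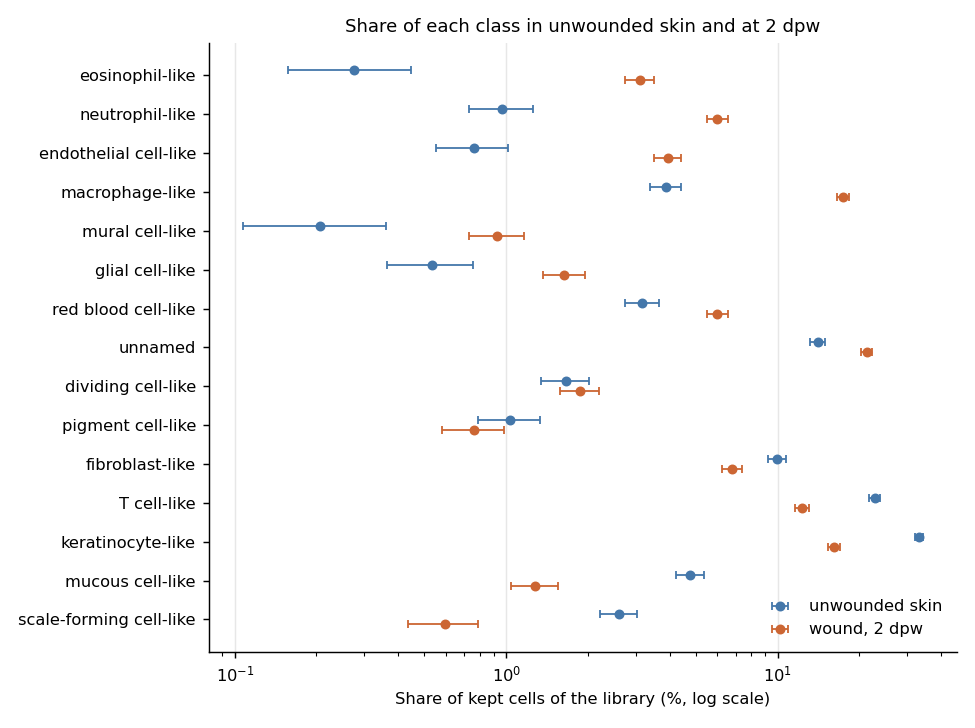
Percent of kept cells in each class (log axis) in unwounded skin and at 2 dpw, with Clopper-Pearson 95% intervals as bars. Macrophage-, neutrophil-, eosinophil-, endothelial- and mural-like cells lie to the right at 2 dpw, and keratinocyte-, mucous cell- and scale-forming cell-like cells to the left.

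Over the whole tissue 12344 genes were compared, of which 1625 (13.2%) were higher and 1205 (9.76%) lower at 2 dpw, with a median log2 ratio of 0.09. The largest UMI share of the higher genes lay most often in macrophage-like cells (1006 genes), followed by fibroblast-like (206), endothelial-like (123) and keratinocyte-like cells (98), and that of the lower genes in keratinocyte-like cells (886). To separate the share of a class from the level within it, each gene's ratio was also computed with the class levels of unwounded skin and the class UMI shares at 2 dpw. Class shares alone reached a 2-fold rise for 841 of the 1625 higher genes (51.8%), whereas class levels alone did so for 568, and 382 needed both together. Among the 1205 lower genes class shares alone gave a 2-fold fall for 32 and class levels alone for 605. With single clusters in place of classes the first number was 399, so part of the fall within classes went with the mix of clusters inside them.

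Genes of lipid handling and of myeloid cells led the rise over the whole tissue. The transcript of fabp11a, a fatty acid-binding protein, stood at 74.3 CPM in unwounded skin and 6563 CPM at 2 dpw, 88.4-fold (85.4 to 91.5) higher, with 73.5% of its UMIs at 2 dpw in macrophage-like cells. It was at 1109 and 719.7 CPM at 4 and 6 dpw. For g0s2, an inhibitor of the triglyceride lipase of lipid droplets, 63 and 24950 UMIs were found, a ratio of 303 (237 to 394), and for hamp, the iron hormone hepcidin, 21 and 3702 UMIs, a ratio of 135 (88 to 218). The fibrin crosslinking factor XIII gene f13a1a.1 had 1 UMI in unwounded skin and 23477 at 2 dpw, with 414 CPM at 2 dpw and 479 and 44.8 CPM at 4 and 6 dpw. Here a ratio of 17949 (3221 to 708980) rests on a single UMI, and the fish of the unwounded pool and wounding cannot be told apart. The eosinophil-like cells held 91.4% of the UMIs of si:ch1073-67j19.1, which was 104.2-fold (92.2 to 118.3) higher. Of the immunoglobulin light chain segment igl4v8 83 and 10378 UMIs were counted, 56.6% and 54.4% of them in T cell-like cells. Dividing cell-like cells held 0 and 3757 of them. With equal weight for every cell its ratio moved from 95.6 to 35.9. The 6 B cell markers summed to 7.18 and 25.8 CPM, and no cluster was named for B cells. Also among the 10 largest ratios were si:dkey-33i11.1 (11 and 2206 UMIs), rskra (2 and 296 UMIs), the unnamed gene ENSDARG00000094832 (0 and 419 UMIs, at least 107-fold higher) and the MHC class I gene mhc1lda (2 and 392 UMIs). The last was seen almost only in the 2 dpw library, with 0.0188 and 0.0528 CPM at 4 and 6 dpw, so that fish of 1 pool and wounding cannot be told apart.

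Among the 10 smallest ratios over the whole tissue, paplnb, a gene of the matrix protein papilin, stood at 135 CPM in unwounded skin and 6.44 CPM at 2 dpw, a ratio of 0.0478 (0.0429 to 0.0531). The transcription factor gene bhlha9 had 231 and 9 UMIs, si:dkey-183i3.5 756 and 33 UMIs, si:dkey-182o15.5 168 and 7 UMIs and si:ch211-226h7.8 237 and 16 UMIs. For prg4a, which encodes the joint lubricant lubricin, 1800 and 32 UMIs were counted, but 74.4% of those in unwounded skin lay in red blood cell-like cells. Without the cell with the most of them in each library its ratio moved from 0.0136 to 0.0498. The same class held 87.6% of the unwounded UMIs of si:ch1073-441p17.1 (659 and 12 UMIs). The remaining members were zgc:152753 (673 and 12 UMIs), BX511067.1 (105 and 1 UMIs) and zgc:165583 (225 and 0 UMIs, a ratio of at most 0.0102 with the floor), of which the last was again found at 4 and 6 dpw with 3.40 and 1.04 CPM, so that here too the fish of 1 pool and wounding cannot be told apart.

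Read by function, lists of phagocyte, matrix, vessel and inflammation genes held far more higher members than the 13.2% of all genes. The lists were written with earlier results of these data known, so their counts, here and within classes, are no independent evidence. Of the phagocyte lipid and lysosome genes 25 of 32 compared were higher, of the wound matrix genes 18 of 26, of the endothelial activation genes 15 of 19 and of the acute phase and iron genes 10 of 14, with 0, 0, 2 and 3 lower. The cytokine il1b, which starts the inflammatory cascade, stood at 38.8 CPM in unwounded skin and 217 CPM at 2 dpw, 5.59-fold (5.31 to 5.88) higher, and 4.18-fold would follow from class shares alone. Tumour necrosis factor tnfa was 6.53-fold (5.56 to 7.7) and the granulocyte growth factors csf3a and csf3b 4.71- and 5.85-fold higher. Of the chemokines 10 of 26 were higher and 6 lower, among them the neutrophil attractant cxcl8b.3 with 5 and 206 UMIs and the epidermal ccl25a at a ratio of 0.233 (0.211 to 0.257). From the list of 19 inflammation genes that the study drew from these same libraries 15 were higher, which is no independent evidence of direction.

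Vessel genes rose together with the endothelial-like cells. The angiogenic chemokine cxcl12b stood at 5.15 CPM in unwounded skin and 59.1 CPM at 2 dpw, 11.5-fold (10 to 13.2) higher, of which class shares alone would give 3.86-fold. The VEGF receptor genes kdr and flt1 were 5.24- and 4.52-fold higher, the leukocyte adhesion gene sele 6.61-fold, the tip cell gene esm1 8.28-fold and von Willebrand factor vwf 8.9-fold. With equal weight for every cell kdr, sele, esm1 and vwf stood at 3.07, 3.63, 4.04 and 4.80. Outside the endothelial-like cells, sele was a leading gene of the unnamed cluster 34, together with itga2b and apln among others. Of flt4, the receptor of lymphatic growth, 1 and 175 UMIs were counted. Against this direction nos1 stood at a ratio of 0.193 (0.146 to 0.252) and the lymphatic regulator prox1a at 0.44 (0.349 to 0.552). With 44 endothelial-like cells in unwounded skin the class was too small to be compared within itself.

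In the other direction, cholesterol synthesis genes were lower in 18 of 20 and desmosome and tight junction genes in 12 of 23 members compared, with 0 higher in both, against 9.76% of all genes. Cell cycle genes did not follow: 0 of 20 S phase and 0 of 22 mitosis genes were called in either direction, with median log2 ratios of 0.05 and -0.14. Ribosome biogenesis genes were likewise called in 0 of 20. The groups differed in how far class shares accounted for them. For the lipid droplet gene plin2 class shares alone would give 3.04-fold of an observed 12.4-fold rise and for fn1b 1.08-fold of 10.7-fold, whereas for msmo1 a ratio of 0.662 would follow and 0.133 (0.129 to 0.137) was observed.

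**Figure D2:**
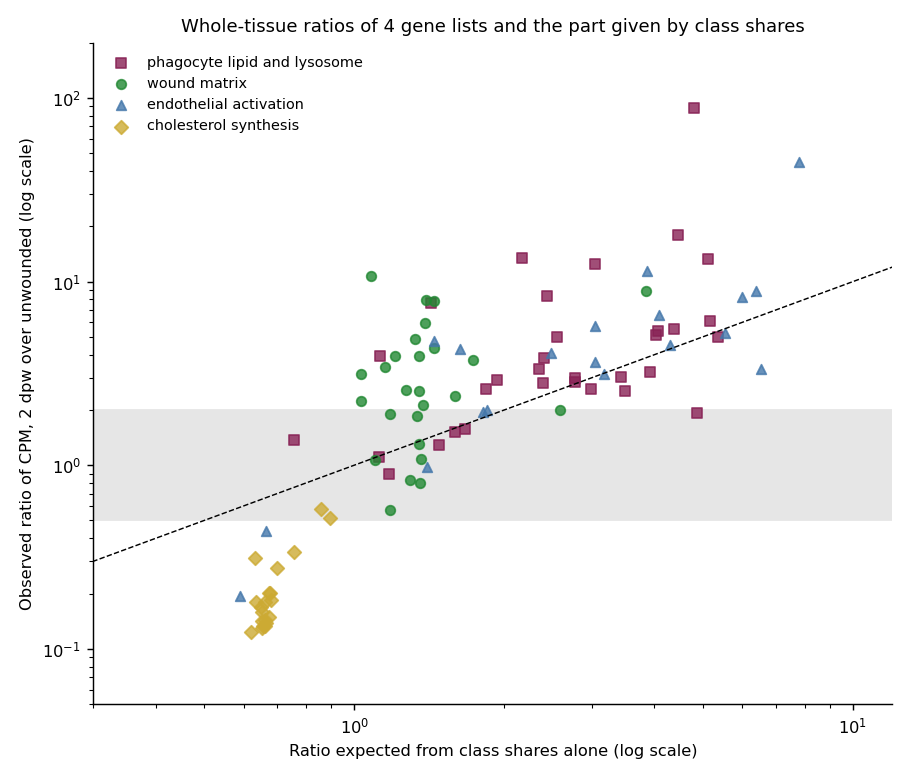
Observed whole-tissue ratio of 2 dpw to unwounded skin (log axis) of the members of 4 lists against the ratio expected from class UMI shares alone (log axis), with equality as a dashed line and ratios between 0.5 and 2 as a grey band. For fn1b 1.08-fold was expected and 10.7-fold observed, and 18 of 20 cholesterol synthesis genes lie below the band.

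Within keratinocyte-like cells (1929 and 1249 cells), a provisional matrix programme was higher and sterol synthesis lower. Of 7560 genes compared, 733 (9.7%) were higher and 474 (6.27%) lower. Weighted with TMM factors, which move every log2 ratio by -0.20, the numbers were 574 and 695. With the 9 clusters of the class held at their shares at 2 dpw, 402 were higher and 277 lower. This takes out shifts between these clusters, but not shifts in the mix of cells inside each of them. The ratio so obtained is called the within-cluster ratio here.

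Of 14 wound matrix genes 12 were higher and 0 lower in keratinocyte-like cells, and 11 were higher within clusters. The fibronectin gene fn1b stood at 51.2 CPM in unwounded skin and 1852 CPM at 2 dpw, 36.2-fold (34.1 to 38.4) higher. Of the cells thinned to 500 UMIs each 1.35% and 22.4% had a transcript, against 3.94% and 40.1% without thinning. It was 313 and 2842 CPM in cluster 7, led by the basal-type genes mmp30, cldn1 and fermt1, and 112 and 3644 CPM in cluster 11, led by jac4 and krt17, so the rise was present in separate clusters. The thrombospondin gene thbs1b stood at 29.4 CPM in unwounded skin and 206 CPM at 2 dpw, 6.99-fold (6.42 to 7.61) higher. For 10 of the 12, among them the periostin gene postnb (33.2 and 392 CPM), the second fibronectin fn1a (20 and 257 CPM) and the collagen XII gene col12a1a (5.4 and 103 CPM), another class had a higher level, so that free RNA from such cells can add to the values. Of 15 genes of protease inhibitors and the plasminogen system 7 were higher, with the clotting inhibitor tfpia at 33.9 and 163 CPM (4.8-fold, 4.42 to 5.21) and the plasmin receptor subunits anxa2a and s100a10b 2.16- and 2.63-fold higher. With equal weight for every cell anxa2a was at 1.90. The anchoring fibril collagen gene col7a1 stood at 13.1 and 96.4 CPM, 7.38-fold (6.5 to 8.39).

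The keratin genes outside the marker list moved in both directions. Of 11 compared, 5 were higher and 2 lower. The transcript of krt94 stood at 70.6 CPM in unwounded skin and 2934 CPM at 2 dpw, 41.6-fold (39.5 to 43.8) higher, and was higher in all 8 clusters with enough UMIs, by 3.36- to 50.4-fold. Its thinned shares of cells were 1.76% and 29.8%. The level of krt15 was 1104 and 4420.5 CPM (4.0-fold, 3.95 to 4.06) and that of krt93 6.98 and 54.2 CPM (7.76-fold, 6.54 to 9.27), whereas krt1-19d stood at 468 and 135 CPM (ratio 0.289, 0.276 to 0.303) and krt99 at a ratio of 0.291 (0.197 to 0.418), but at 0.743 with equal weight for every cell. Within clusters 5 were higher and 0 lower, with krt1-19d at a within-cluster ratio of 0.509. Midkine, a heparin-binding growth factor encoded by mdka, stood at 184 CPM in unwounded skin and 1958 CPM at 2 dpw, 10.7-fold (10.3 to 11) higher, and at 3.3 within clusters. Of 13 growth factor genes compared 8 were higher and 0 lower, and 5 and 0 within clusters.

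Cholesterol synthesis genes were lower in 18 of 20 members, with 0 higher, and keratinocyte-like cells led the classes for 17 of the 18. The level of msmo1, a sterol C4-demethylating oxidase, was 1188 CPM in unwounded skin and 263 CPM at 2 dpw, a ratio of 0.221 (0.214 to 0.228). The rate-limiting reductase hmgcra stood at 253 and 55.8 CPM (ratio 0.22, 0.205 to 0.236), the synthase hmgcs1 at 638 and 182.6 CPM (0.286, 0.275 to 0.298), the mevalonate kinase mvk at 19.4 and 2.72 CPM (0.14, 0.10 to 0.192) and srebf2, the transcription factor that drives the pathway, at 171 and 67.9 CPM (0.398, 0.371 to 0.426). Part of this fall went with a cluster: cluster 18, in which msmo1, ebp and sc5d were leading genes although they took no part in clustering, numbered 231 and 53 cells, a share ratio of 0.172. Within clusters 9 of the 20 were at least 2-fold lower, with a median log2 ratio of -0.93 against -1.89 over the class. Cluster by cluster at a minimum of 20 UMIs, between 2 of 20 (cluster 18, where 9.09% of all genes were lower) and 17 of 20 members (cluster 12, where 5.9% were) fell. For msmo1 the ratio was 0.215 in cluster 7, 0.117 in cluster 11 and 0.602 in cluster 18.

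Hemidesmosome genes, which fix basal cells to the basement membrane, were higher in 8 of 10 members over the class and in 1 of 10 within clusters. The integrin gene itgb4 stood at 586 CPM in unwounded skin and 1327 CPM at 2 dpw, 2.27-fold (2.22 to 2.32) higher, but at a within-cluster ratio of 0.777, with 4401 and 3454 CPM in cluster 7 and 8982 and 4764 CPM in cluster 24. With equal weight for every cell its ratio was 0.989. The same held for col17a1b (2.77 over the class, 0.938 within clusters) and itga6b (2.86 and 1.0), which were at 1.41 and 1.198 with equal weight for every cell. Cluster 7, in which basal genes were high, numbered 291 and 393 cells while the class as a whole fell from 1929 to 1249, and its median UMIs per cell were 3144 in unwounded skin and 12435 at 2 dpw. Only itga3a, a laminin-binding integrin, was 2-fold higher also within clusters (4.1 and 23.1 CPM, 2.05). The class-wide rise of this group was thus measured together with a larger part of cluster 7 in the class.

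**Figure D3:**
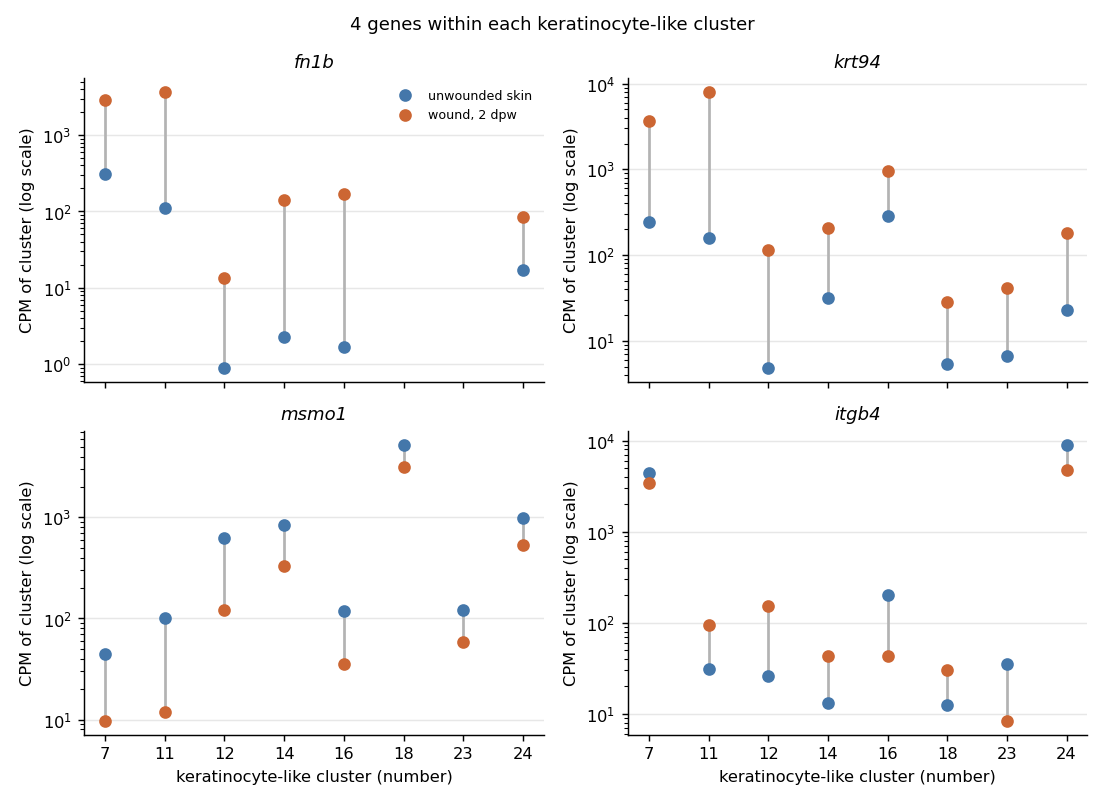
CPM (log axis) of fn1b, krt94, msmo1 and itgb4 in unwounded skin and at 2 dpw in each of 8 keratinocyte-like clusters, with fn1b left out of clusters 18 and 23 for too few UMIs. krt94 was higher by 3.36- to 50.4-fold in all 8 clusters, msmo1 had ratios of 0.117 to 0.602, and itgb4 had ratios of 0.785 in cluster 7 and 0.53 in cluster 24.

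Tight junction genes of the claudin family, which seal the epidermis, were divided. The claudin cldnb stood at 5369.5 and 2381 CPM (ratio 0.443, 0.438 to 0.449), cldne at 1382 and 521 CPM (0.377, 0.368 to 0.386) and cldnf, with mucous cell-like cells higher, at a ratio of 0.305 (0.249 to 0.37), whereas cldn1 stood at 63.7 and 253 CPM (3.97-fold, 3.73 to 4.22) and cldni at 984 and 2072 CPM (2.11-fold, 2.07 to 2.14). With equal weight for every cell cldni was at 0.996 and cldne at 0.540. Of 21 desmosome and tight junction genes 5 were lower and 2 higher, and within clusters 1 was lower and 0 higher. Immediate-early genes were lower in 7 of 33, with the growth-arrest factor klf4 at a ratio of 0.303 (0.262 to 0.349), klf2b at 372 and 107 CPM (0.288, 0.273 to 0.304) and egr3 at 281 and 119 CPM (0.424, 0.402 to 0.446), and higher in 2. The chemokine cxcl8b.1 stood at 640.2 CPM in unwounded skin and 207 CPM at 2 dpw, a ratio of 0.323 (0.311 to 0.335), and the macrophage growth factor gene csf1b at 42.8 and 16.3 CPM (0.38, 0.33 to 0.437). The inducible nitric oxide synthase nos2a stood at a ratio of 0.48 (0.458 to 0.503), the chemokine scavenger ackr4b at 0.32 (0.283 to 0.361) and the prostaglandin-degrading hpgd at 0.281 (0.203 to 0.383), with nos2a at 0.562 and hpgd at 0.623 with equal weight for every cell. Of 27 interferon response genes 4 were higher, among them mxc (6.35 and 54.8 CPM, 8.62-fold, 7.21 to 10.4) and stat1b (2.15-fold (1.97 to 2.35), but 1.88 with TMM factors).

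By the rule for extreme genes, alpk2 (1 and 131 UMIs), gnat2 (0 and 115 UMIs, at least 53.9-fold higher) and pax6b (8 and 261 UMIs) joined krt94 and fn1b at the upper end in keratinocyte-like cells. The smallest ratios were those of si:dkey-183i3.5 (691 and 18 UMIs), bhlha9 (208 and 8 UMIs), si:dkey-182o15.5 (166 and 7 UMIs), the galectin-type gene lgals1l1 (180 and 8 UMIs) and the nucleotidase gene entpd8 (119 and 10 CPM). Genes of phagocytes also appeared here, with 12 of 25 phagocyte lipid and lysosome genes higher, but another class had the higher level in all 12. The gene fabp11a was also found in 0.302% and 9.14% of T cell-like cells thinned to 500 UMIs. Whether this came from free RNA, doublets or the cells themselves was not tested.

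A clustering of both libraries without integration split the keratinocyte-like cells of unwounded skin and wound more strongly. Its cluster 32, led by jac4, krt94 and krt17 among others, numbered 35 and 756 cells, cluster 24, led by col7a1, mdka and fn1b among others, 10 and 195, and cluster 19, led by ebp, msmo1 and sc5d among others, 325 and 27. With 1 library a side, a cell state found mostly in one of them and that library cannot be told apart. In the larger clusters held by both sides the ratios were smaller. For fn1b the levels were 46.6 and 119 CPM (2.55-fold, 2.17 to 2.99) in cluster 3 (636 and 359 cells) and 13 and 206 CPM (15.8-fold, 12.5 to 20.1) in cluster 2 (601 and 282 cells), and for krt94 86.9 and 406 CPM (4.67-fold, 4.2 to 5.2) and 61.8 and 542 CPM (8.77-fold, 7.85 to 9.82). Of the 20 cholesterol synthesis genes 15 were lower in cluster 3, where 5.38% of all genes were, and 0 in cluster 2, where 3.63% were. The fall of that pathway was thus not found in every group of keratinocytes.

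In fibroblast-like cells (579 and 528 cells) 10 of 25 genes of a provisional matrix and 5 of 15 of collagen modification were higher, while 8 of 10 collagen genes other than the class markers stayed between 0.5 and 2. In a clustering without integration the libraries fell mostly into different clusters. Within these the share of the matrix list that was higher was near or below that of all genes. Among the integrated clusters, 8 of 25 matrix genes were higher in cluster 6, against 587 of 6145 genes. In cluster 10 they were 12 of 26, against 1052 of 4671 genes, and in cluster 4 they were 4 of 26, against 1217 of 7519. Of 4711 genes 551 (11.7%) were higher and 454 (9.64%) lower. Totals that leave out ribosomal protein, mitochondrial and haemoglobin genes, which move every log2 ratio by 0.12, gave 713 and 373. The median UMIs per cell of this class were 4600 in unwounded skin and 11282.5 at 2 dpw, and after thinning the deeper side to equal totals 396 genes of 3458 were higher and 451 lower. Whether depth had a part in single ratios was not tested.

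Of 25 wound matrix genes 10 were higher and 3 lower in fibroblast-like cells. Tenascin C, encoded by tnc and typical of granulation tissue, stood at 69.8 CPM in unwounded skin and 391 CPM at 2 dpw, 5.6-fold (4.91 to 6.42) higher. The fibronectin gene fn1a stood at 179.6 and 879 CPM (4.89-fold, 4.5 to 5.32), the collagen XII gene col12a1a at 508 and 1594 CPM (3.14-fold, 2.98 to 3.3) and cthrc1a, a secreted protein of collagen-producing fibroblasts, at 142 and 431 CPM (3.04-fold, 2.76 to 3.35). The thrombospondin thbs4b, cilp and ogna were 4.35-, 3.47- and 3.33-fold higher. In contrast ccn1, an immediate-early matricellular gene, stood at 3145 and 1166 CPM (ratio 0.371, 0.36 to 0.382), vcana at a ratio of 0.47 (0.426 to 0.518) and thbs1b at 0.475 (0.426 to 0.53), the last pair at 0.501 and 0.507 with TMM factors. Of 15 collagen crosslinking and processing genes 5 were higher and 1 lower. These were plod2, the lysyl hydroxylase of collagen telopeptides (16 and 166 UMIs, 5.67-fold, 3.39 to 10.15), the prolyl hydroxylase subunits p4ha1b (71.5 and 194 CPM, 2.72-fold, 2.37 to 3.12) and p4ha1a (2.12-fold, 1.49 to 3.08), the procollagen proteinase bmp1a (2.42-fold, 2.03 to 2.9) and the lysyl oxidase loxl2b (2.01-fold (1.75 to 2.31), but 1.87 with equal weight for every cell). Of 10 other collagen genes 0 were higher and 2 lower, with col14a1a at 65.8 and 10.47 CPM (ratio 0.159, 0.119 to 0.21) and col5a2b at a ratio of 0.127 (0.0781 to 0.20), the latter with a higher level in scale-forming cell-like cells.

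Without integration, cluster 25, led by mgp and fgl2b among others, numbered 269 and 80 cells, cluster 27, led by tnc, cilp, col12a1a and postna among others, 168 and 544, and cluster 35, led by paplnb and chad among others, 64 and 4. In cluster 27 tnc stood at 197 and 386 CPM (1.96-fold, 1.7 to 2.26), col12a1a at 1203 and 1596 CPM (1.33-fold, 1.25 to 1.41) and cilp at 126 and 236 CPM (1.88-fold, 1.58 to 2.25), all below 2-fold, whereas fn1a stood at 187 and 888 CPM (4.74-fold, 4.12 to 5.47) and cthrc1a at 139 and 421 CPM (3.02-fold, 2.57 to 3.57). Of 27 wound matrix genes with at least 20 UMIs there 5 were higher and 6 lower, against 16.8% and 9.02% of all genes, and in cluster 25 of 22 there were 0 higher, against 3.49% of all genes, and 9 lower, against 542 of all 4585 genes. Within the cluster that made up a larger part of the class at 2 dpw, the ratios of tnc, col12a1a and cilp were thus smaller than over the class. Of 17 collagen modification genes 6 were higher and 0 lower in cluster 27, whereas in cluster 25 1 of 10 was higher and 1 lower.

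Of 19 ER chaperone and unfolded protein response genes 9 were higher in fibroblast-like cells, where 11.7% of all genes compared were. Without integration 8 were higher in cluster 27, against 16.8% of all genes, and 0 of 19 in cluster 25, against 3.49%. Over the class pdia3 stood at 428 and 909 CPM (2.12-fold, 2.01 to 2.25) and pdia6 was 2.19-fold (1.85 to 2.61) higher, or 1.91-fold with equal weight for every cell, both led by fibroblast-like cells. The level of hsp90b1 was 189 and 525 CPM (2.78-fold, 2.55 to 3.02). Against these, atf4b of the stress response stood at 955 and 339 CPM (ratio 0.355, 0.336 to 0.375). Glycolysis and hypoxia genes were higher in 8 of 16, but another class was higher for all 8, as for ldha (3.08-fold, 2.72 to 3.49). Of 11 chemokine genes 5 were higher. The neutrophil attractant cxcl8b.1 stood at 122 CPM in unwounded skin and 1081 CPM at 2 dpw, 8.85-fold (8.02 to 9.78) higher, whereas the same gene was lower in keratinocyte-like cells. Of cxcl8b.3 there were 0 and 188 UMIs, at least 34.2-fold more in CPM, and ccl19a.1 stood at 75.8 and 340.2 CPM (4.49-fold, 3.95 to 5.12). The chemokine ccl25b stood at 1373 and 349 CPM (ratio 0.254, 0.242 to 0.267) and the scavenging receptor ackr3b at 333 and 129 CPM (0.386, 0.352 to 0.422).

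A part of the immediate-early, heat shock and growth factor genes was lower in the same cells, where 9.64% of all genes compared were. Of 32 AP-1 and immediate-early genes 15 were lower and 1 higher, with fosab at 4586 and 1504 CPM (ratio 0.328, 0.32 to 0.336), fosb at 1269.6 and 508 CPM (0.40, 0.382 to 0.419) and klf2a at a ratio of 0.309 (0.277 to 0.346), and only fosl1b higher at 5.72 and 21.6 CPM (3.77-fold, 2.35 to 6.37). The heat shock gene hsp70.1 stood at 1667 and 396 CPM (ratio 0.238, 0.227 to 0.249), one of 4 lower of 16, while 1, hsp90aa1.1, was higher (5 and 149 UMIs). Of 15 growth factor genes 5 were lower, among them the activin subunit inhbaa at 809 and 379 CPM (0.469 (0.444 to 0.495), but 0.549 with equal weight for every cell), its antagonist follistatin fstb at 182.4 and 57.5 CPM (0.315, 0.276 to 0.359), igfbp5b at 775 and 274 CPM (0.354, 0.333 to 0.376) and apelin apln at a ratio of 0.168 (0.124 to 0.224), while pdgfab was 2.97-fold (2.19 to 4.1) higher. Cholesterol synthesis genes were lower in 8 of 10 members compared, with another class at a higher level for all 8. Without integration 20 of 33 immediate-early genes were lower in cluster 27, against 9.02% of all genes. In cluster 25 they were 4 of 32, against 542 of all 4585 genes, which is a similar share.

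Cell cycle genes were higher in some fibroblast-like cells, unlike over the whole tissue. Of 5 S phase genes compared 3 were higher and of 6 mitosis genes 2, with 0 lower and another class at a higher level for all. The nucleotide-cleaning enzyme dut stood at 6.86 and 40 CPM (5.83-fold, 3.83 to 9.27), the flap endonuclease fen1 at 8.58 and 27.5 CPM (3.21-fold, 2.17 to 4.89) and the single-strand binding subunit rpa2 at 13.2 and 42.3 CPM (3.22-fold, 2.35 to 4.5). Of ube2c, a ubiquitin-conjugating enzyme of mitotic exit, there were 2 and 157 UMIs. In cluster 4, led by tnc and cthrc1a among others (202 cells at 2 dpw), 13 of 17 S phase and 14 of 17 mitosis genes with at least 20 UMIs were higher, against 16.2% of all genes. In cluster 27 without integration these were 15 of 20 and 14 of 20, against 16.8% of all genes. The median cell of cluster 4 had 5740.5 UMIs in unwounded skin and 15656.5 at 2 dpw, so genes can pass the limit through the deeper side alone. In cluster 10, where 1052 of 4671 genes were higher, the numbers were 3 of 4 and 1 of 6. In cluster 6, where 587 of 6145 genes were higher, they were 1 of 6 and 0 of 5. Cluster 25 without integration, where 3.49% of all genes were higher, had 0 of 2, with 2 lower, and 0 of 5.

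The 5 largest ratios of the class named the leptin gene lepa (1.43 and 80.3 CPM, 56.2-fold, 23.9 to 174), adamtsl7 (12 and 706 UMIs), si:ch211-287a12.9 (18.6-fold, 8.39 to 51.2), the urokinase-type gene plaub (3.72 and 67.3 CPM, 18.1-fold, 10.48 to 34.3) and cxcl8b.3, given above. The actin monomer-binding thymosin gene tmsb2 stood at 14.3 and 174 CPM (12.2-fold, 9.17 to 16.5). The smallest named tat (102 and 2.97 CPM), the bone matrix gene spp1 (379 and 25 CPM), the glycogenin gyg1b (121 and 9.22 CPM), si:dkey-21e2.15 (140 and 1 UMIs) and si:dkey-21e2.10 (159 and 6 UMIs), the last pair at 0.327 each without the cell with most of their UMIs in each library. The last pair were also leading genes of the unnamed cluster 33, and gyg1b of the unnamed cluster 19. Likewise adamtsl7, tmsb2 and pdgfab, the last given above, were leading genes of the unnamed cluster 20. That cluster (63 and 107 cells), led by col18a1b among others, lies outside the fibroblast-like class, and unnamed clusters were not compared for the highest level. With the 3 clusters of the class held at their shares at 2 dpw, 517 genes were higher and 402 lower, a value that rests on the integrated clusters.

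Macrophage-like cells (225 and 1351 cells) had lower levels of antigen presentation transcripts and higher levels of lipid handling and acute phase transcripts at 2 dpw. Of 6338 genes 623 (9.83%) were higher and 332 (5.24%) lower. The wound library gave this class far more UMIs, and after thinning it to equal totals 2555 genes could be compared, of which 198 were higher and 208 lower. All cells of the class lay in 1 cluster after integration. Without integration they fell into cluster 10, led by g0s2, fabp11a and lipf among others, with 2 and 260 cells, cluster 13, led by fabp7b and cxcl19 among others, with 128 and 302, and cluster 14, led by mfap4, mrc1b and hamp among others, with 75 and 766. Class ratios therefore hold a changed mix of macrophages as well as changes within them, and ratios within clusters 13 and 14 are given beside them.

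Of 7 MHC class II pathway genes 6 were lower and 0 higher, and this class led the others for all of them. The class II beta chain mhc2b stood at 978 CPM in unwounded skin and 92.1 CPM at 2 dpw, a ratio of 0.0941 (0.088 to 0.101), and mhc2dab at 1140.1 and 139.8 CPM (0.123, 0.116 to 0.13). The invariant chain gene cd74a stood at 15711 and 2282 CPM (0.145, 0.143 to 0.147) and cd74b at 6812 and 1399 CPM (0.205, 0.201 to 0.21), and mhc2a at 3745 and 1007 CPM (0.269, 0.262 to 0.276). In cells thinned to 500 UMIs a transcript of mhc2b was found in 32% and 3.4% and one of cd74a in 90.7% and 37.7%. The co-receptor cd4-1 was also lower, at 100.1 and 5.98 CPM (ratio 0.0597, 0.0464 to 0.0763), as were the nuclear receptors nr4a1 (289.9 and 52.2 CPM, 0.18, 0.162 to 0.20) and nr4a2b (54.8 and 2.38 CPM, 0.0434, 0.0292 to 0.063). Within clusters 13 and 14 of the clustering without integration 4 and 5 of the 7 class II pathway genes were lower, against 5.2% and 5.82% of all genes. The ratio of mhc2b was 0.222 (0.206 to 0.24) in cluster 13 and 0.125 (0.104 to 0.149) in cluster 14, and that of cd74a 0.305 (0.299 to 0.31) and 0.141 (0.137 to 0.145).

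Of 31 phagocyte lipid and lysosome genes 9 were higher and 2 lower. Lipoprotein lipase lpl stood at 43.1 and 262 CPM (6.07-fold, 4.97 to 7.49), the lipid droplet coat gene plin2 at 113 and 479.5 CPM (4.24-fold, 3.74 to 4.81), the acid lipase lipf at 101 and 698 CPM (6.94-fold, 6.09 to 7.94) and the apolipoprotein apoc1 at 234 and 845 CPM (3.62-fold, 3.32 to 3.95). The lysosomal glycoprotein gpnmb stood at 18.3 and 131 CPM (7.19-fold, 5.3 to 10), a ratio that became 12.8 without the cell with most of its UMIs in each library and 55.7 without the 5% highest Scrublet scores, and the mannose receptor mrc1b at 203 and 465 CPM (2.29-fold, 2.08 to 2.52). Fatty acid-binding fabp11a stood at 796 and 17563 CPM (22.1-fold, 21.1 to 23.1), with another class higher still. The tartrate-resistant phosphatase acp5a stood at 1059 and 173 CPM (ratio 0.163, 0.154 to 0.172) and the scavenger receptor stab1 at 28.3 and 10.6 CPM (0.375, 0.28 to 0.508). The lipolysis inhibitor g0s2 was detected in 0% and 16% of thinned cells, with dividing cell-like cells at a higher level. Without integration 7 of 30 list members were higher in cluster 13 and 4 of 31 in cluster 14, against 10.7% and 8.52% of all genes. The ratio of fabp11a was 9.05 (8.22 to 9.99) and 10.1 (9.27 to 11) there and that of lipf 3.3 (2.64 to 4.17) and 2.85 (2.36 to 3.47), whereas plin2 stood at 7.43 (5.73 to 9.8) in cluster 13 and 1.85 (1.59 to 2.16) in cluster 14. In cluster 14, which held most macrophages of the wound, lpl stood at 1.61 (1.28 to 2.06).

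Acute phase and iron genes were higher in 6 of 11 and lower in 0. Serum amyloid A, encoded by saa, stood at 41.4 CPM in unwounded skin and 682 CPM at 2 dpw, 16.5-fold (13.5 to 20.4) higher. Hepcidin hamp stood at 8.71 and 193 CPM (22.2-fold, 14.3 to 36.3), with mural-like cells higher, and acod1, which makes the antimicrobial itaconate, at 26.1 and 122 CPM (4.68-fold, 3.62 to 6.16), with another class higher. Within clusters 13 and 14 without integration 4 of 9 and 7 of 12 of these genes were higher, against 10.7% and 8.52% of all genes. There saa stood at ratios of 21 (14 to 32.8) and 10.7 (8.38 to 14). The cytokine tnfa stood at 39.6 and 79.3 CPM, 2.0-fold (1.62 to 2.51) higher, with an interval reaching below 2 and a ratio of 1.72 with equal weight for every cell. Of 6 chemokine receptors 2 were higher, with ccr2 of inflammatory monocytes at 3.26-fold (2.03 to 5.55), and 3 lower, with cxcr3.2 at 313 and 125 CPM (ratio 0.398, 0.365 to 0.434). The angiogenic growth factor vegfaa stood at 3.48 and 54.1 CPM (15.53-fold, 7.84 to 36.08), below the level of fibroblast-like cells. The hypoxia-responsive transcription factor gene hif1ab stood at 264 and 564 CPM (2.14-fold, 1.97 to 2.32), the membrane protease mmp14b at 172 and 367 CPM (2.14-fold, 1.93 to 2.38) and properdin cfp of the complement system at 144 and 318 CPM (2.21-fold, 1.97 to 2.47). The urokinase-type plaua stood at 407 and 115 CPM (ratio 0.281, 0.26 to 0.305) and the ubiquitin-like interferon target isg15 at 344 and 131 CPM (0.38, 0.35 to 0.413), with keratinocyte-like cells higher, one of 3 lower of 24 interferon genes.

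**Figure D4:**
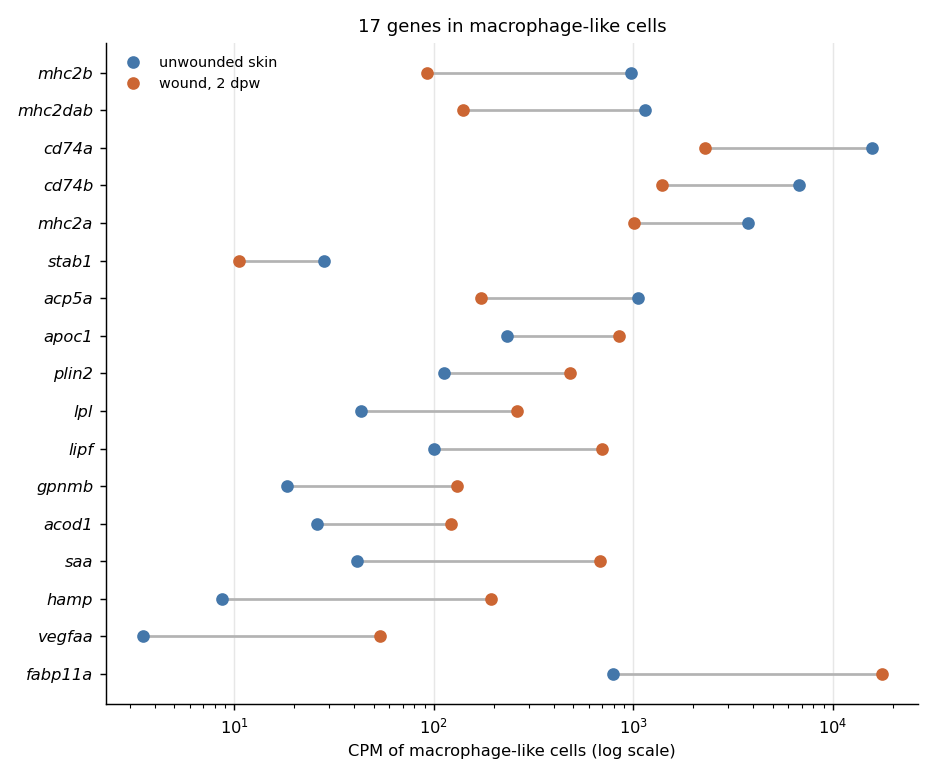
CPM (log axis) of 17 genes in macrophage-like cells of unwounded skin (225 cells) and of the 2 dpw wound (1351 cells), chosen after their values were seen. The 5 class II pathway genes, stab1 and acp5a lie lower at 2 dpw, and the lipid and acute phase genes and vegfaa higher.

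The 5 largest ratios of the class were those of saa, f13a1a.1, si:dkey-33i11.1 (1 and 1800 UMIs), mhc1lda (1 and 343 UMIs) and ENSDARG00000094832 (0 and 398 UMIs, at least 19.6-fold). Of f13a1a.1 there were 0 and 21652 UMIs, which is at least 1066-fold more in CPM, in 0% and 11.3% of the cells without thinning and 0% and 3.63% with it. Its transcripts were thus concentrated in a minority of the cells. Among the smallest ratios were those of nr4a2b, cd4-1, mhc2b and BX640512.3 (ratio 0.122, 0.0948 to 0.156). The list plot sets keratinocyte-, fibroblast- and macrophage-like cells side by side.

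**Figure D5:**
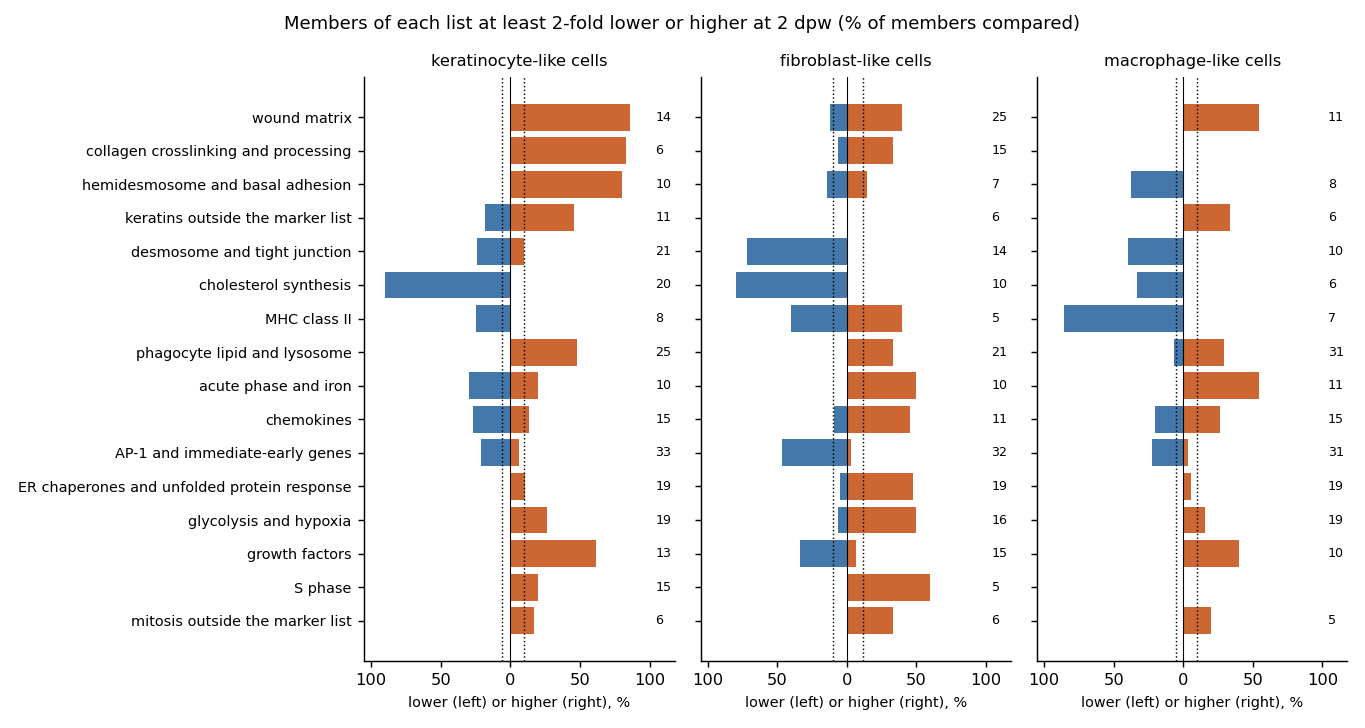
Percent of the members compared of 16 lists that were at least 2-fold lower (left) or higher (right) at 2 dpw in keratinocyte-, fibroblast- and macrophage-like cells, with the number compared beside each bar and the share of all genes as a dotted line. Cholesterol synthesis was lower in 18 of 20 genes in keratinocyte-like cells, wound matrix higher in 12 of 14 there, and MHC class II lower in 6 of 7 genes in macrophage-like cells.

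T cell-like cells (1324 and 952 cells) had fewer called genes. Of 3919 genes 61 (1.56%) were higher and 85 (2.17%) lower. The interleukin 6 family cytokine osm stood at 2.47 CPM in unwounded skin and 74.3 CPM at 2 dpw, 30.1-fold (16.5 to 61) higher, and 8.90-fold with equal weight for every cell. It was also a leading gene of the unnamed cluster 33 (17 and 36 cells), and unnamed clusters are not among the classes compared for the highest level. The ratio of 20.7 (12.5 to 36.7) for si:dkey-21e2.12 rested on single cells, being 0.456 without the cell with most of its UMIs in each library. The epidermal growth factor ligand hbegfb stood at 271 and 69.4 CPM (ratio 0.256, 0.221 to 0.296) and lymphotoxin lta at 31.3 and 10.4 CPM (0.334, 0.223 to 0.489). The immune-type receptor nitr4a stood at a ratio of 0.283 (0.202 to 0.389), CABZ01084081.1 at 0.164 (0.103 to 0.251) and cnot6b at 0.254 (0.147 to 0.418). For igl3v5 the ratio of 0.27 (0.226 to 0.32) became 2.54 without 1 cell per library. Cell cycle genes were not called in either direction in 16 S phase and 16 mitosis members. Keratin genes, by contrast, were higher in 5 of 6, with another class higher in all 5.

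Mucous cell-like cells were down to 99 at 2 dpw, and 27 of 2038 genes (1.32%) were higher and 169 (8.29%) lower. After thinning to equal totals 26 of 825 genes were higher and 66 lower. The granulin gene grn2, one of the macrophage markers, stood at 34.8 CPM in unwounded skin and 2114 CPM at 2 dpw (60.7-fold, 47.8 to 78.2), or 11.04-fold higher with equal weight for every cell, and the stress-induced gig2l, the transcription factor sox4a and the G protein subunit gng13a were 4.59-, 3.97- and 2.97-fold higher. With equal weight for every cell sox4a was at 1.79, and without the 5% highest Scrublet scores gig2l was at 8.80. Outside the class, gng13a was a leading gene of the unnamed cluster 30 (86 and 25 cells) and grn2 of the unnamed cluster 36 (36 and 28 cells). At the lower end stood si:dkey-33i11.4 (146 and 3 UMIs), the keratin krtt1c19e (103 and 1 UMIs, but a ratio of 2.96 without the cell with most in each library), baiap2a (ratio 0.275, 0.128 to 0.526), malb (0.298, 0.21 to 0.411) and ponzr5 (0.317, 0.214 to 0.454). Cholesterol synthesis genes were lower in 8 of 9 and chemokines in 7 of 8, for all of which another class had the higher level.

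The remaining classes allowed only coarse statements. Of 1914 genes in neutrophil-like cells 583 (30.5%) were higher and 55 (2.87%) lower, from 56 cells in unwounded skin against 465. After thinning to equal totals, 401 genes could be compared, of which 88 were higher and 32 lower. A clustering without integration named 8 and 452 cells neutrophil-like, so these numbers may compare partly different cells and no gene is named. Red blood cell-like cells had 32 of 404 genes (7.92%) higher and 27 (6.68%) lower, or 9 and 25 of 245 after thinning. Pigment cell-like cells had 35 of 647 (5.41%) higher and 117 (18.1%) lower, and without integration the class numbered 64 and 37 cells in place of 60 and 59. Genes of a separate unnamed cluster of that clustering (24 and 55 cells, led by scn4ab, foxd3 and scn1ba among others) were among the higher ones, as for scn4ab (170 and 933 UMIs), so that these numbers too may compare partly different cells. In dividing cell-like cells, which mix lineages, 352 of 2177 genes (16.2%) were higher and 193 (8.87%) lower, with 7 and 34068 UMIs of the macrophage gene fabp11a among them.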

How the data were processed

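Single-cell libraries of the 10x Genomics 3' v3.1 kind were made from skin of adult fish. The authors used Cell Ranger, in version 6.1.2 per the header of the deposited counts. They also used Seurat 4.3.0, which the methods and the submitters' processing notes name, with GRCz11 named in the latter. The deposited values are raw counts of UMIs for 25432 genes, without normalization. Gene symbols held by several IDs (1244 genes) were treated as separate genes. The files held 7320 and 9686 cells with 54723378 and 87234983 UMIs. Scrublet in scanpy 1.11.5 marked 0 doublets in either library, so its calls were of no use and no doublet was removed. Its scores served in an alternative setting, and whether high scores mark doublets here was not tested.

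Under R 4.3.3, sctransform 0.4.2 and Seurat 5.3.0 were used to integrate all 4 libraries on 3079 genes (3500 variable genes less the lists) and to cluster them on 17 dimensions at resolution 1 into 38 clusters. A class marker counted where at least 10% of a cluster's cells had it at 2 times the level of other cells, and the class with the most of them, at least 3, named the cluster. Cluster 30 was left unnamed after the clusters had been seen. Counts were summed over the library or a class with at least 50 cells in both libraries, and expressed as CPM. Ratios have exact conditional intervals and shares Clopper-Pearson intervals at 95%, which cover counting error only. UMIs of 1 library per condition give no test. Python 3.11.15, numpy 2.4.6, scipy 1.17.1, pandas 2.3.3, matplotlib 3.10.9 and edgeR 4.0.16 (TMM factors only) were used. The interval and call calculations were tested on simulated data.

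Genes named are the 10 largest and 10 smallest ratios of the whole tissue, the 5 and 5 of a class that no other named class expresses higher, and members of 33 gene lists (716 of 742 genes found) with at least 100 UMIs in either library. Lists were compared with all genes by counts. The comparison, its members and lists were chosen with earlier results of these data known. Alternatives were other limits on cells, other naming and clustering, other totals and filters, equal weight for every cell, leaving out the cell with most of a gene, and, added after the data were seen, equal UMI totals (not equal depth per cell), no upper limits, fixed cluster shares, values within clusters made without integration and another name for cluster 2. No sequences or coordinates are given, and a few list members are not reported here.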

Additional observations from a re-analysis of the deposited data

Results flagged for a closer look

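Genes of the lists are given here if their counting interval lay wholly beyond 2-fold higher in 1 class and beyond 2-fold lower in another. Only keratinocyte-, mucous cell-, fibroblast-, macrophage- and T cell-like cells were searched, and genes far below the level of another class were left out. With 1 library a side the difference between classes was not tested. The chemokine gene cxcl8b.1 had a ratio of 8.85 in fibroblast-like cells, 0.323 in keratinocyte-like cells and 0.260 in mucous cell-like cells. The activin subunit gene inhbaa stood at 5.45 in keratinocyte-like cells and 0.469 in fibroblast-like cells, and igfbp5b at 2.25 and 0.354. With equal weight for every cell inhbaa was above 0.5 in fibroblast-like cells. Fibroblast-like cells had ratios of 3.77 for fosl1b, against 0.357 in keratinocyte-like cells, and 0.452 for atf3, against 2.23 in macrophage-like cells.

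The 3 genes itgb4, col17a1b and itga3a of basal adhesion and the claudin gene cldni had a class-wide ratio above 2 in keratinocyte-like cells and below 0.5 in another class. With equal weight for every cell itgb4 and cldni stood at 0.989 and 0.996 in keratinocyte-like cells, and within clusters itgb4 stood at 0.777. The ratios were 2.27 for itgb4 in keratinocyte-like, 0.317 in fibroblast-like and 0.339 in macrophage-like cells. For cldni they were 2.11 and, in fibroblast-like cells, 0.163. In keratinocyte-like against macrophage-like cells col17a1b stood at 2.77 and 0.358 and itga3a at 5.64 and 0.171. In unwounded skin itgb4 was at 586 CPM in keratinocyte-like, 308 in fibroblast-like and 72.3 in macrophage-like cells. The levels of col17a1b were 167 CPM in keratinocyte-like and 29.6 in macrophage-like cells. For cldni they were 984 CPM and, in fibroblast-like cells, 225. In contrast itga3a was at 4.1 CPM in keratinocyte-like and 41.8 in macrophage-like cells. The part of free RNA in these values was not tested.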

How the results depend on the processing

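No paired analysis was possible because each condition is 1 library. Rare genes decided many numbers: with at least 10 UMIs the whole tissue had 2627 genes higher and 2145 lower, and with no filter 2761 and 2496. In the order keratinocyte-, mucous cell-, fibroblast-, macrophage-, neutrophil-, T cell-, red blood cell-, pigment cell- and dividing cell-like, higher genes with at least 10 UMIs numbered 2209, 537, 1639, 994, 1123, 472, 430, 494 and 1756, and lower genes 1041, 696, 1636, 1407, 613, 629, 332, 816 and 944. With no filter they numbered 2864, 1679, 1639, 994, 1123, 895, 430, 1329 and 1867, and 1093, 696, 2448, 3648, 3009, 684, 1040, 816 and 1373. Intervals wholly beyond 2-fold left 293 higher genes in fibroblast-like, 262 in macrophage-like, 213 in neutrophil-like and 231 in dividing cell-like cells, and 276, 67, 187, 33, 34 and 55 lower genes in keratinocyte-, mucous cell-, macrophage-, neutrophil-, T cell- and pigment cell-like cells. With the deeper class thinned to the UMI total of the other, which leaves the depth per cell unequal, 198, 88 and 9 were higher in macrophage-, neutrophil- and red blood cell-like cells, and 66, 208, 32 and 67 lower in mucous cell-, macrophage-, neutrophil- and pigment cell-like cells. Fewer genes could then be compared, 825, 2555, 401, 245 and 399 in mucous cell-, macrophage-, neutrophil-, red blood cell- and pigment cell-like cells. Clusters held at their shares gave 402 and 277 in keratinocyte-like cells, and equal weight for every cell 52 higher in mucous cell-like cells. Naming each cell by its markers gave 29 higher and 42 lower in T cell-like, 186 and 12 in red blood cell-like and 107 and 64 in dividing cell-like cells. Clustering without integration gave 110 lower in mucous cell-like and 6 in red blood cell-like cells. Its mucous cell-like class held a cluster of 198 and 68 cells led by hmx3a, adgrf3a and avil among others. These were also leading genes of the unnamed cluster 30. Class shares alone gave 88 lower genes without integration and 399 by cluster.

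Of the share ratios, naming by markers moved those of keratinocyte-like cells to 0.565, fibroblast-like to 0.891, macrophage-like to 5.52, red blood cell-like to 2.59 and unnamed cells to 1.25. That of neutrophil-like cells became 14.7, from 20 and 394 cells. For mucous cell-like cells it became 0.125, which rests on 6 and 1 cells in place of 277 and 99. Without integration the share ratios were 0.605 for keratinocyte-like, 0.938 for fibroblast-like, 42.3 for neutrophil-like and 0.433 for pigment cell-like cells, and 0.981, a reversal, for unnamed cells. Leaving out red blood cells and unnamed clusters gave 0.551, 0.776 and 0.612 for keratinocyte-, fibroblast- and T cell-like cells, cluster 2 as keratinocyte-like 0.621, a mitochondrial limit of 10% 7.43 for endothelial-like cells, and a minimum of 1000 UMIs 0.587 for T cell-like and 1.34 for unnamed cells. Single genes reversed as follows. With equal weight for every cell, the ratio in keratinocyte-like cells was 0.996 for cldni and 0.989 for itgb4. Without the cell with most of its UMIs, it was 2.54 for igl3v5 and 0.456 for si:dkey-21e2.12 in T cell-like cells and 2.96 for krtt1c19e in mucous cell-like cells, which became 2.78 without the 5% highest Scrublet scores. The cause was not tested. Precision is limited by 56 neutrophil-like cells in unwounded skin and 99 mucous cell-like cells at 2 dpw, and no setting replaces the missing replicates.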
